A study of Mus musculus with 8 samples.

Results

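The 31 genes described here make, regulate, carry and clear cholesterol, and were taken by symbol from the 54307 genes of the deposited table. They are 18 enzymes of the synthesis pathway, 4 regulators of it, 5 genes of lipoprotein metabolism and export, 2 genes of lysosomal cholesterol release and 2 genes of turnover and storage. All 31 had enough reads to be tested. RNA-seq was done on periventricular brain tissue, which holds the ventricular-subventricular zone (V-SVZ), a niche of adult neural stem cells, from 1 hemisphere of each of 8 mice at 8 weeks of age on the 129-Elite strain background, labelled 129. The 4 KO mice (2 female, 2 male) carried CreERT2 in exon 1 of both copies of *Lrig1*, which encodes a transmembrane regulator of growth factor receptors. The 4 WT mice (3 female, 1 male) were littermates with 2 intact copies and no Cre. The knockout is constitutive, so *Lrig1* was lost throughout development and in every cell type, not in neural stem cells alone. Each mouse gave 1 library, and the p-values measure the spread between separate mice.

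Brain cells make nearly all of their own cholesterol, because lipoproteins of the blood do not cross the blood-brain barrier. Acetyl-CoA is built up through mevalonate to squalene, which is closed to lanosterol and trimmed to cholesterol, and in the adult brain astrocytes and oligodendrocytes do much of this work. When sterols run low in the endoplasmic reticulum, SCAP carries SREBP proteins away from the INSIG anchors, and the freed SREBP fragments bind sterol regulatory elements in the promoters of the pathway, often beside CCAAT sequences bound by NF-Y. Astrocytes load cholesterol onto APOE through ABC transporters, LCAT esterifies it on the particle, neurons take it up through receptors such as LRP1, and CYP46A1 in neurons turns the surplus into a form that leaves the brain.

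The stretches of 250 bases before the start of transcription are shown for *Hmgcs1* and *Nsdhl*, the members with letters of a sterol regulatory element in their promoter window, and for *Lcat*, the member whose genotype groups did not overlap in normalized counts. The *Lcat* stretch was added after its values were seen. They are from RefSeq on GRCm38.p6, at chr13:119690101-119690350 (plus strand), chrX:72918271-72918520 (plus strand) and chr8:105943403-105943652 (minus strand), each written along the gene's own strand. Capitals mark the letters of a sterol regulatory element, TCACNCCAC or its looser form TCACNCNAC, and of CCAAT on either strand.
Hmgcs1: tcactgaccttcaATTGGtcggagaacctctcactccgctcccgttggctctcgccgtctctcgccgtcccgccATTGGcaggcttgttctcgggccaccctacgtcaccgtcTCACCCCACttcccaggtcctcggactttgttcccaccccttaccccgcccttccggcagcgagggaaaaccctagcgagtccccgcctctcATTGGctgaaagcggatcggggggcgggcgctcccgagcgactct
Nsdhl: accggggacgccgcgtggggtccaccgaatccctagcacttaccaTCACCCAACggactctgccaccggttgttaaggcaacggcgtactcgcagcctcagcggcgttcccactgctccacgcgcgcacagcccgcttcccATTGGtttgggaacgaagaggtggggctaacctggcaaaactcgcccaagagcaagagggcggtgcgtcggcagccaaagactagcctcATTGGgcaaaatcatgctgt
Lcat: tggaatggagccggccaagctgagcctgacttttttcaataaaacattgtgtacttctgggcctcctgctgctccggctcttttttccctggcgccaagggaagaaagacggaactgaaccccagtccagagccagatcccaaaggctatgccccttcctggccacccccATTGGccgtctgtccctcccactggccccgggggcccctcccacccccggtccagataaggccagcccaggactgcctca
In *Hmgcs1* the TCACCCCAC letters lie 137 to 129 bases before the start, between copies of ATTGG, the reverse complement of CCAAT, that begin 176 and 45 bases before it. In *Nsdhl* the looser match TCACCCAAC lies 205 to 197 bases before the start, and ATTGG begins 109 and 20 bases before it. *Lcat* has 1 ATTGG, 80 to 76 bases before its start.

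The search ran on both strands of windows of 300 bases, 250 before and 50 after the start, for the 26 members with a RefSeq window, and *Npc1*, *Fdft1*, *Abcg1*, *Fdps* and *Sqle* had none. TCACNCCAC was found in 1 of the 26 members (*Hmgcs1*) and in 1.44% of the 27025 genes with a window. The looser TCACNCNAC, which includes every TCACNCCAC match, was found in 2 of 26 members and in 3.15% of genes. CCAAT was found in 21 of the 26 members (80.8%), in 14 of the 15 enzymes with a window (93.3%) and in 41.1% of all genes. GGGCGG, the core of the GC box that SP1 binds, was in 23 of 26 members, 14 of 15 enzymes and 38.2% of genes. CACGTG, an E-box, was in 6 of 26 members, 3 of 15 enzymes and 8.09% of genes. These are matches of letters in a short window, not measured binding sites.

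Levels of different genes were compared in TPM, a gene's share of all transcripts in a library, which takes account of transcript length. *Apoe*, the main apolipoprotein of the brain, had a mean of 3852 TPM over the 8 mice and was the most abundant member by far (range 3262 to 6206). *Hmgcs1*, the HMG-CoA synthase, followed with 124 TPM, and *Cyp46a1*, the neuronal cholesterol hydroxylase, with 121 TPM, and the ranges of these genes over the mice overlapped (94.01 to 177 and 90.02 to 161). The least abundant were *Abca1*, a cholesterol exporter, with 5.83 TPM, *Hsd17b7*, a sterol keto reductase, with 6.16, and *Soat1*, which esterifies cholesterol for storage, with 6.99, whose ranges also overlapped. Within the mevalonate arm the mean levels ran from 13.4 TPM (*Mvd*) to 124 TPM (*Hmgcs1*), and within the sterol arm from 6.16 TPM (*Hsd17b7*) to 58.0 TPM (*Msmo1*, the methyl sterol oxidase). *Idi1* is not given in TPM, since only 5.32% of its counts lay in transcripts that could be matched to a gene.

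**Figure D1:**
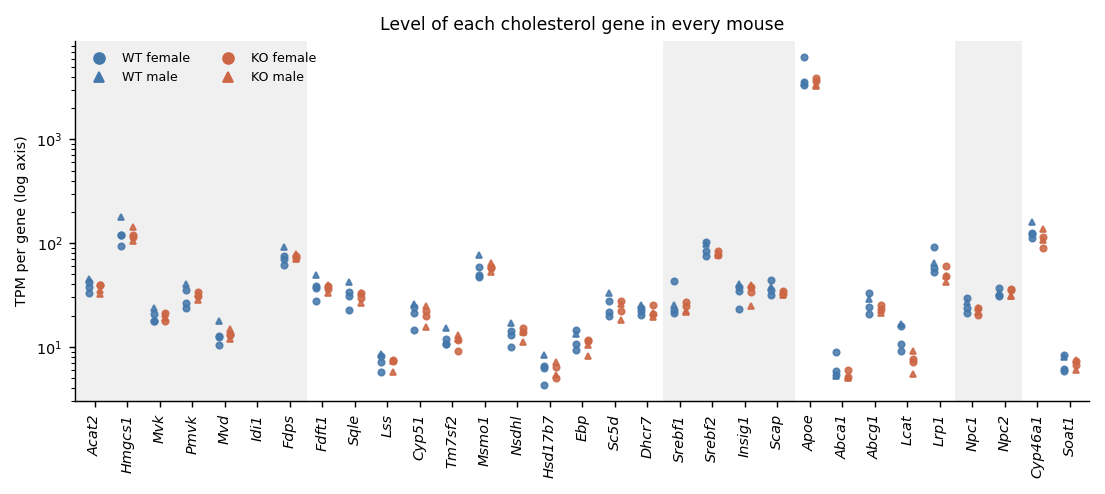
TPM of each member in each mouse on a log axis, with WT in blue, KO in orange, circles for females and triangles for males, and shaded bands parting the 6 role groups. *Apoe* lies near 3852 TPM, the other members lie between 4.30 and 177 TPM, and *Idi1* is left empty.

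The libraries held between 47887437 and 74482334 counts. *Lrig1* lay between 13.5 and 45.6 CPM, counts normalized for library size, in the WT mice and between 1.17 and 4.15 CPM in the KO mice, so every mouse fitted its label. No marker of the 12 cell type lists was at 0 in all mice. Summed markers of oligodendrocytes came to between 6377 and 8233 CPM, those of neural stem cells to between 96.6 and 138 CPM and those of ependymal cells to between 23.2 and 56.1 CPM. Markers of cortical neurons summed to between 2268 and 3228 CPM in the 5 females and to between 3550 and 6843 CPM in the 3 males, with the highest sum in WT replicate 2, the single male among the WT mice. In such bulk tissue, fewer cells of a type and less RNA per cell cannot be told apart.

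The first comparison asked which cholesterol genes differ between KO and WT. The 18 synthesis enzymes stood at nearly the same mean level in both genotypes. In CPM *Lcat* was lower in every KO mouse than in any WT mouse, but in TPM the genotypes overlapped. Of the 31 members, 0 were called at an adjusted p under 0.1 (edgeR quasi-likelihood test, Benjamini-Hochberg over 17669 genes), against 1 of all genes tested, or 0.00566%. That gene was not the targeted *Lrig1*, which had a log2 fold change of -3.80 and an adjusted p of 0.286 in this test. For *Lrig1* the adjusted p was 4.13e-08 in DESeq2 and 0.000176 in edgeR with sex (Benjamini-Hochberg). The main test thus missed the targeted gene itself, and a lack of calls in it does not show a lack of difference. DESeq2 on the same counts called 1 member, *Lcat*, and 0.0737% of genes. With sex in the edgeR model 0 members were called, against 0.0113% of genes. At an unadjusted p under 0.05 there was 1 member, again *Lcat*, against 1.88% of all genes (1.08% for genes lower in KO). *Lcat* was also the only member whose genotype groups did not overlap in CPM, against 1.53% of all genes (0.877% for genes lower in KO). Without WT replicate 2 there were 4 members at an unadjusted p under 0.05, *Lcat*, *Lrp1*, *Abca1* and *Npc1*, all lower in KO, as were 1.91% of all genes in that fit, which leaves WT with females alone. Without KO replicate 1 there were 2, *Lcat* and *Npc1*, both lower in KO, as were 1.58% of all genes in that fit. In KO 19 members were lower and 12 higher, and the median of their log2 fold changes was -0.020, while 50.3% of all genes were lower, with a median of -0.0009. The 95% interval of the log2 fold change included 0 for 30 of the 31 members, and for these its bounds lay between -0.63 (*Lrp1*) and 0.36 (*Insig1*).

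**Figure D2:**
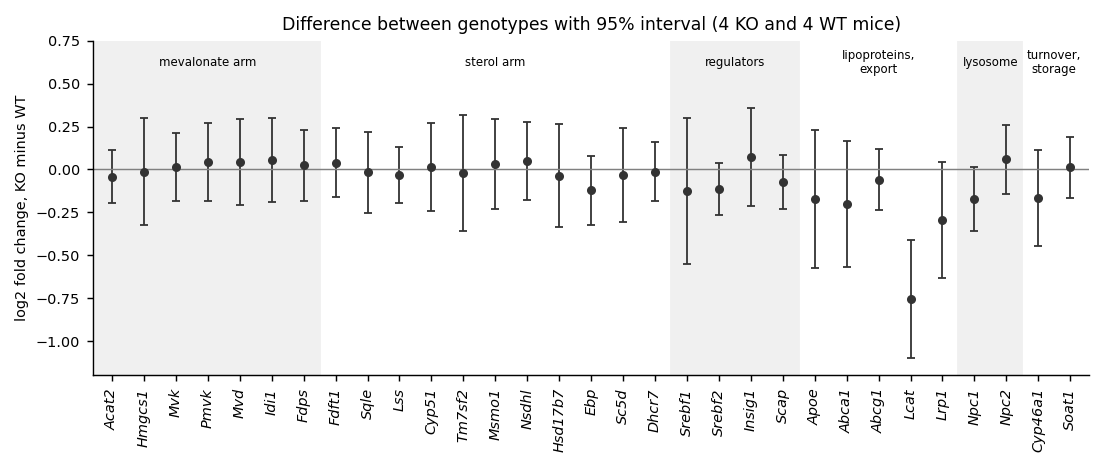
Log2 fold change of KO over WT for each member (points) with its 95% interval from edgeR (bars), in pathway order, with shaded bands parting the role groups. The interval of *Lcat*, from -1.10 to -0.41, is the only one that does not reach the line at 0.

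*Lcat* (ENSMUSG00000035237.8) encodes the enzyme that esterifies cholesterol on lipoprotein particles, and in the brain it is made mainly by astrocytes. It was at 8.80, 11.9, 8.61 and 11.3 CPM in WT replicates 1 to 4 and at 5.14, 6.30, 6.9998 and 5.63 CPM in KO replicates 1 to 4. Each of the KO mice lay below the whole WT group, the male of WT was the highest WT mouse, and the males of KO were the lowest and the highest KO mice. The means were 10.2 ± 1.69 CPM in WT and 6.02 ± 0.811 CPM in KO (SD, n = 4 each), so that KO held 59.2% of the WT level. The log2 fold change was -0.75 (standard error 0.15, 95% interval -1.10 to -0.41).

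By its unadjusted p in edgeR, 0.000794, *Lcat* ranked at 8 among all genes, and it did not pass after adjustment (adjusted p = 1 in edgeR, Benjamini-Hochberg). It passed in DESeq2 (log2 fold change -0.76, adjusted p = 0.0115, Benjamini-Hochberg) and in DESeq2 with a term for sex, a fit added after the data were seen that called 1.31% of genes (-0.79, adjusted p = 0.00225, Benjamini-Hochberg). Its log2 fold change was below 0 in all 22 alternatives run, from -0.84 to -0.67, with adjusted p between 0.00225 and 1 (edgeR or DESeq2, Benjamini-Hochberg). In the 5 females alone it was -0.68. Only 1 transcript of the gene was well covered, ENSMUST00000038896.8, with between 263 and 725 counts a mouse. Transcripts with few counts in every mouse were left out. *Gm16156*, which overlaps *Lcat* on the other strand, had at most 2 counts. In TPM the mean was 13.0 ± 3.70 in WT and 7.40 ± 1.51 in KO (SD, n = 4 each), and there the genotypes overlapped, with KO replicate 3 at 9.20 TPM and WT replicate 3 at 9.08.

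The mean log2 CPM of 10 astrocyte markers was 7.71, 7.76, 7.85 and 8.03 in WT replicates 1 to 4 and 7.69, 7.87, 7.59 and 7.77 in KO replicates 1 to 4. These scores overlapped between the genotypes. With this score in the model, an alternative added after the data were seen, the log2 fold change of *Lcat* was -0.74. With the score of 10 cortical neuron markers as a covariate it was -0.69, and with that of 10 oligodendrocyte markers it was -0.79. The cause of the *Lcat* difference was not tested.

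**Figure D3:**
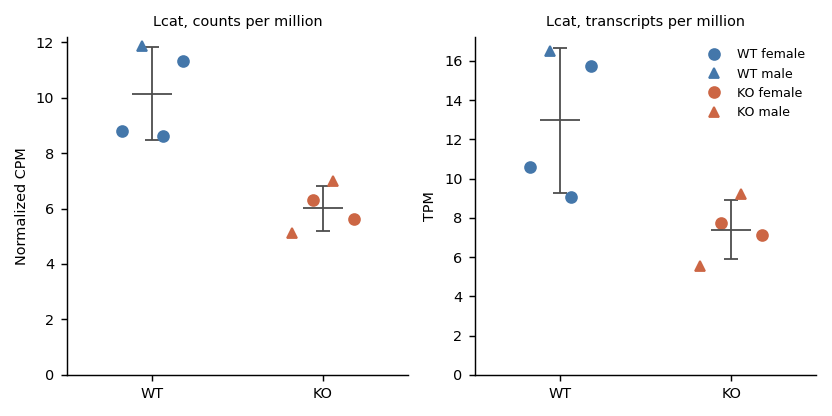
*Lcat* in each mouse, in normalized CPM (left) and TPM (right), with circles for females, triangles for males, and bars for the mean and SD of 4 mice. In CPM the KO mice lie between 5.14 and 6.9998 and the WT mice between 8.61 and 11.9, while in TPM KO replicate 3 (9.20) lies above WT replicate 3 (9.08).

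The 7 genes of the mevalonate arm, which lead from acetyl-CoA to farnesyl diphosphate, lay close to 0, with 5 higher in KO and 2 lower, 0 at an unadjusted p under 0.05 and log2 fold changes from -0.041 (*Acat2*) to 0.055 (*Idi1*). *Hmgcs1* (ENSMUSG00000093930.3) was at 273, 352, 247 and 233 CPM in WT replicates 1 to 4 and at 262, 272, 313 and 250 CPM in KO replicates 1 to 4. The highest mouse was the male of WT and the next a male of KO, the lowest were WT females, and the genotypes overlapped throughout. Its means were 276 ± 53.2 CPM in WT and 274 ± 27.7 CPM in KO (SD, n = 4 each), a log2 fold change of -0.012 (95% interval -0.33 to 0.30, adjusted p = 1 in edgeR, Benjamini-Hochberg).

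*Idi1* (ENSMUSG00000058258.16), the isomerase that makes dimethylallyl diphosphate, was at 53.7, 64.2, 47.6 and 45.8 CPM in WT and at 52.1, 57.1, 57.3 and 53.0 CPM in KO, in the order of the replicates. WT held both the highest and the lowest mice, and the KO mice lay between them. The log2 fold change was 0.055 (95% interval -0.19 to 0.30, adjusted p = 1 in edgeR, Benjamini-Hochberg), and without WT replicate 4 it was -0.0061. Of its paralog *Idi2* there were at most 3 counts in a mouse, whereas *Acat3*, the close copy of *Acat2*, had between 255 and 685 counts, so the split of reads between those copies is uncertain.

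The 11 genes of the sterol arm turn farnesyl diphosphate into squalene, lanosterol and cholesterol. In KO 4 were higher and 7 lower, 0 had an unadjusted p under 0.05, and the log2 fold changes ran from -0.12 (*Ebp*) to 0.049 (*Nsdhl*, a sterol dehydrogenase). *Msmo1* (ENSMUSG00000031604.11), the most abundant of them, was at 80.9, 86.9, 74.0 and 58.3 CPM in WT and at 77.8, 75.1, 80.6 and 73.5 CPM in KO, in the order of the replicates. WT replicate 4 was well below the other mice and the KO mice lay within the WT range. The means were 75.01 ± 12.3 CPM in WT and 76.8 ± 3.10 CPM in KO (SD, n = 4 each), a log2 fold change of 0.033 (95% interval -0.23 to 0.29).

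*Ebp* (ENSMUSG00000031168.15), the sterol isomerase, was at 12.4, 13.2, 12.2 and 11.6 CPM in WT and at 10.5, 11.3, 11.2 and 12.5 CPM in KO, in the order of the replicates. The lower mice were mostly KO, but KO replicate 4 was above all WT mice but WT replicate 2. This was the largest difference of any synthesis enzyme, with a log2 fold change of -0.12 (95% interval -0.32 to 0.078, adjusted p = 1 in edgeR, Benjamini-Hochberg), and in the 5 females alone it was -0.021. Over all 18 enzymes the KO mean was between 91.9% and 103.9% of the WT mean, and the interval bounds lay between -0.36 and 0.32 on the log2 scale, so that larger differences in either direction lie outside the interval of every enzyme. *Fdft1*, *Cyp51* and *Tm7sf2* overlap *Ctsb*, *Akap9* and *Vps51* in the annotation, which had between 2480 and 41724 counts a mouse, so shared reads cannot be told apart there.

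Of the 4 regulators, 1 was higher and 3 were lower in KO, with 0 at an unadjusted p under 0.05. *Srebf2* (ENSMUSG00000022463.9), which encodes the SREBP that drives sterol synthesis, was at 259, 258, 264 and 268 CPM in WT and at 259, 233, 231 and 248 CPM in KO, in the order of the replicates. The WT mice were tightly grouped, 3 of the 4 KO mice were below them all, and KO replicate 1 lay among them. The means were 262 ± 4.46 and 243 ± 13.5 CPM (SD, n = 4 each), a log2 fold change of -0.11 (95% interval -0.26 to 0.039, adjusted p = 1 in edgeR, Benjamini-Hochberg).

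*Srebf1* (ENSMUSG00000020538.16), whose SREBP acts mainly on fatty acid genes, was at 58.0, 54.0, 69.3 and 99.97 CPM in WT and at 66.6, 71.3, 55.2 and 64.6 CPM in KO, in the order of the replicates. WT replicate 4 stood far above the other 7 mice, which overlapped. The log2 fold change was -0.13 (95% interval -0.55 to 0.30), the widest interval of all members, and without WT replicate 4 it was 0.094. Its main transcripts, ENSMUST00000144942.2 and ENSMUST00000020846.8, held between 40.8% and 45.3% and between 35.1% and 46.3% of the TPM summed over its better covered transcripts. Transcripts of the gene with few counts in every mouse were left out of that sum. *Srebf1* overlaps *Rai1* on the other strand, which had between 3250 and 5022 counts a mouse, so shared reads cannot be told apart. *Insig1*, which retains SREBP in the endoplasmic reticulum and is itself an SREBP target, had a log2 fold change of 0.071 (95% interval -0.21 to 0.36), and *Scap*, the SREBP escort, had -0.073 (95% interval -0.23 to 0.083).

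All 5 genes of lipoproteins and export had lower means in KO, the median being -0.20 on the log2 scale, but beside *Lcat* none had an unadjusted p under 0.05. *Apoe* (ENSMUSG00000002985.17) was at 1728, 1597, 2062 and 2717 CPM in WT and at 1912, 1834, 1511 and 1930 CPM in KO, in the order of the replicates. WT replicate 4 was far above all others, and the rest of the mice were mixed between the genotypes. The log2 fold change was -0.17 (95% interval -0.58 to 0.23, adjusted p = 1 in edgeR, Benjamini-Hochberg), and without WT replicate 4 it was 0.0015.

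*Lrp1*, the large receptor that takes up APOE particles, was at 331, 267, 374 and 429 CPM in WT and at 322, 296, 248 and 276 CPM in KO, in the order of the replicates. Of the WT mice 3 were above every KO mouse and WT replicate 2 was among the KO mice. The means were 350 ± 68.4 and 286 ± 31.3 CPM (SD, n = 4 each), a log2 fold change of -0.29 (95% interval -0.63 to 0.042). The unadjusted p was 0.0789 in edgeR, and it was 0.00949 without WT replicate 2 (log2 fold change -0.41) and 0.224 without WT replicate 4 (-0.18). It was 0.0391 with transcript sums and length offsets (-0.37), 0.0318 with the cortical score (-0.34) and 0.0232 in the females alone (-0.40). With sex as a covariate it was 0.154 (-0.23), and with the astrocyte score 0.285 (-0.15).

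*Abca1*, which loads cholesterol onto lipid-poor APOE, had a log2 fold change of -0.20 (95% interval -0.57 to 0.17), which was -0.064 without WT replicate 4 and -0.32 without WT replicate 2. *Abcg1*, which loads it onto formed particles, had -0.059 (95% interval -0.24 to 0.12). WT replicate 4 was the highest of the 8 mice in all 5 of *Apoe*, *Abca1*, *Abcg1*, *Lrp1* and *Srebf1*, on average 0.43 above the gene mean on the log2 scale, and KO replicate 3 and WT replicate 2, both males, were at -0.26 and -0.25. These 5 genes were grouped after their values were seen, and over all 31 members WT replicate 4 was at 0.039, the highest mouse for 8 and the lowest for 5. WT replicate 4 also had the highest astrocyte score, 8.03, and KO replicate 3 the lowest, 7.59. With that score in the model the genotype difference was 0.038 for *Apoe*, 0.13 for *Srebf1*, -0.032 for *Abca1* and -0.15 for *Lrp1*.

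**Figure D4:**
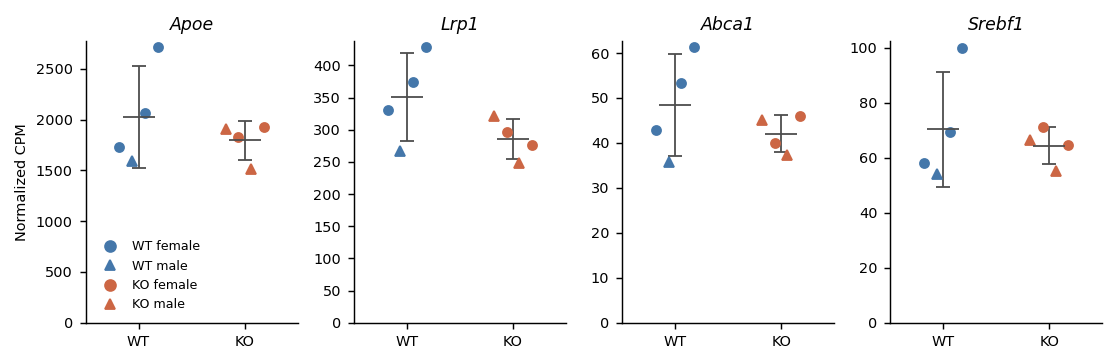
Normalized CPM of *Apoe*, *Lrp1*, *Abca1* and *Srebf1* in each mouse, with circles for females, triangles for males, and bars for the mean and SD of 4 mice. The highest point of each panel is WT replicate 4, at 2717, 429, 61.5 and 99.97 CPM.

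Of the genes that release cholesterol from lysosomes, *Npc1*, the membrane transporter, was at 85.7, 83.6, 88.6 and 98.7 CPM in WT and at 88.1, 72.0, 76.4 and 79.6 CPM in KO, in the order of the replicates. KO replicates 2, 3 and 4 were below every WT mouse and KO replicate 1 lay among the WT mice. The log2 fold change was -0.17 (95% interval -0.36 to 0.013), with the lowest unadjusted p of the members after *Lcat* (0.0647 in edgeR). It was -0.12 without WT replicate 4 and -0.13 without KO replicate 2. In the 5 females alone, a fit chosen after the data were seen, it was -0.26 (unadjusted p = 0.0345 in edgeR). With transcript sums and length offsets it was -0.12 (unadjusted p = 0.147 in edgeR). *Npc1* overlaps *Rmc1* on the other strand, which had between 784 and 1232 counts a mouse, so shared reads cannot be told apart.

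*Npc2*, the sterol-binding partner in the lysosome, was at 74.6, 66.8, 82.5 and 76.4 CPM in WT and at 82.5, 81.8, 68.3 and 80.3 CPM in KO, in the order of the replicates. The low mice were a male of each genotype, and the others overlapped. The log2 fold change was 0.059 (95% interval -0.14 to 0.26, adjusted p = 1 in edgeR, Benjamini-Hochberg).

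*Cyp46a1* (ENSMUSG00000021259.6), through which neurons clear cholesterol, was at 176, 201, 186 and 158 CPM in WT and at 174, 128, 183 and 158 CPM in KO, in the order of the replicates. KO replicate 2 was far below the other mice, which overlapped. The means were 180 ± 18.1 and 161 ± 24.4 CPM (SD, n = 4 each), a log2 fold change of -0.17 (95% interval -0.45 to 0.12). With sex as a covariate it was -0.24, with an unadjusted p of 0.0329, in a fit in which 6.95% of all genes had an unadjusted p under 0.05. Without KO replicate 2 it was -0.069. *Soat1* had a log2 fold change of 0.012 (95% interval -0.17 to 0.19).

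Other genes of the pathway were taken from lists of 40 sterol genes, of which *Soat2* and *Ch25h* had too few reads to be tested, and 12 fatty acid genes driven by SREBP. Of the 38 sterol genes tested, 14 had higher and 24 lower means in KO, where 50.3% of all genes were lower. The median was -0.046 on the log2 scale. In edgeR 0 were called, against 0.00566% of all genes, and in DESeq2 0, against 0.0737%. At an unadjusted p under 0.05 there was 1 gene, the same in each, against 1.88% of all genes in edgeR. That gene was *Apod*, an apolipoprotein of glia. It was at 117, 111, 120 and 117 CPM in WT and at 102, 90.7, 106 and 90.9 CPM in KO, in the order of the replicates. It had no overlap between the genotypes, as had 1.53% of all genes (0.877% for genes lower in KO). Its log2 fold change was -0.26 (standard error 0.070, unadjusted p = 0.00502, adjusted p = 1 in edgeR, Benjamini-Hochberg). DESeq2 with a term for sex, the fit added after the data were seen that called 1.31% of all genes, called 2 of these, *Apod* (-0.28, adjusted p = 0.0761, Benjamini-Hochberg) and *Sort1* (-0.34, adjusted p = 0.0141), a sorting receptor that binds APOE particles. In the main edgeR fit *Sort1* was at -0.25 (unadjusted p = 0.0952) with overlap between the genotypes, and DESeq2 without sex did not call it. *Sort1* was also called between females and males (-0.34, adjusted p = 0.0981 in edgeR, Benjamini-Hochberg). *Nr1h2*, a nuclear receptor for oxidized sterols, was at -0.13 in edgeR (unadjusted p = 0.14).

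Of the 12 fatty acid genes, 4 were higher and 8 lower, with a median of -0.023, where 50.3% of all genes were lower. In edgeR 0 were called and 0 had an unadjusted p under 0.05, against 0.00566% and 1.88% of all genes. The smallest p belonged to *Fasn*, the fatty acid synthase, at -0.20 (unadjusted p = 0.0867), followed by *Acaca*, which makes malonyl-CoA, at -0.11, and *Elovl6*, a fatty acid elongase, at 0.16.

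Among the single mice, many of the 18 synthesis enzymes were high in 1 mouse, the male of WT. On the log2 scale their mean deviation from the gene means was 0.19 in WT replicate 2, between -0.10 and -0.0014 in the other 3 WT mice, and between -0.055 and 0.051 in the 4 KO mice. WT replicate 2 was the highest of the 8 mice for 13 of the 18 enzymes, and WT replicate 4 was the lowest for 5 and WT replicate 3 for 4. The spread of single enzymes over the 8 mice was small, with a coefficient of variation between 5.02% (*Acat2*) and 14.3% (*Hmgcs1* and *Tm7sf2*). WT replicate 2 also had the highest cortical neuron score, a mean log2 CPM of 7.34, against between 3.23 and 6.31 in the other mice, and the part of tissue makeup in the pattern was not tested. *Hmgcs1* and *Nsdhl*, whose promoter stretches are printed above, were at 352 and 21.995 CPM in that mouse, and *Nsdhl* was slightly higher in KO replicate 2 (22.3 CPM).

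**Figure D5:**
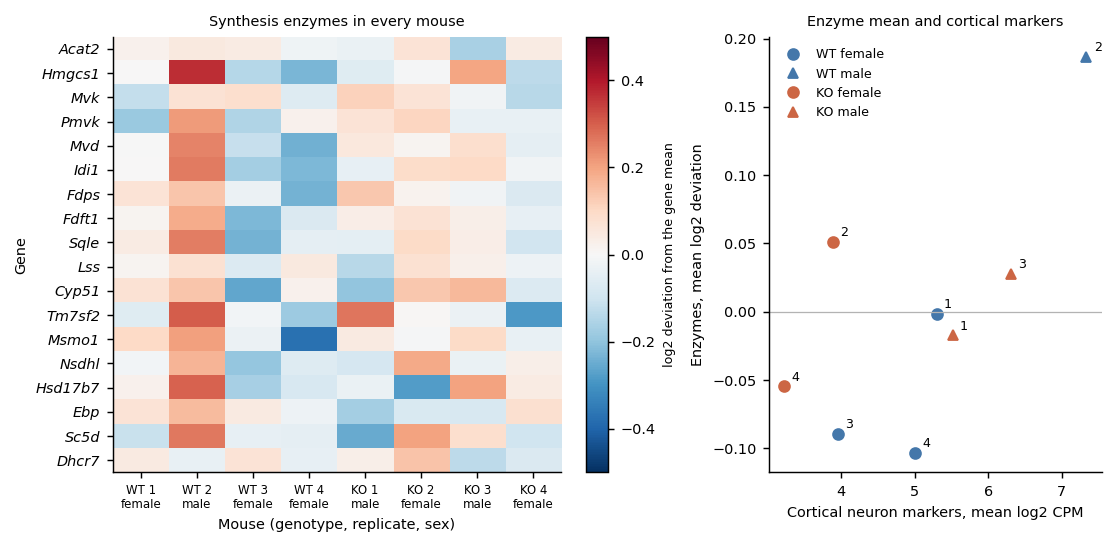
Left, log2 deviation of each of the 18 synthesis enzymes from its mean over the 8 mice (colour scale, red above and blue below), with mice in columns. Right, the mean deviation of the enzymes in each mouse against the mean log2 CPM of 10 cortical neuron markers, with numbers giving the replicate, and WT replicate 2 at 0.19 and 7.34 apart from the others.

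The genotypes held different shares of females, so the members were also compared between the 5 females and the 3 males with genotype in the model. Of the 31 members, 0 were called at an adjusted p under 0.1 (edgeR, Benjamini-Hochberg), against 3.72% of all genes. At an unadjusted p under 0.05 there were 4, against 15.9% of all genes, and all 4 were lower in females, against 9.55%. Of the 18 enzymes 14 were lower in females, where 49.5% of all genes were, and their median log2 difference was -0.13.

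*Hmgcs1* was at between 233 and 273 CPM in the females and at 262, 313 and 352 CPM in the males, so that 1 male lay among the females. The means were 255 ± 17.3 CPM (SD, n = 5) in females and 309 ± 45.5 CPM (SD, n = 3) in males, a log2 difference of -0.29 for females against males (adjusted p = 0.244 in edgeR, Benjamini-Hochberg). *Tm7sf2*, a sterol reductase, was at 8.29, 8.57, 7.63, 8.70 and 7.09 CPM in the females and at 10.7, 10.4 and 8.48 CPM in the males, of which the last, KO replicate 3, lay among the females. Its log2 difference was -0.32 (adjusted p = 0.257 in edgeR, Benjamini-Hochberg).

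*Hsd17b7* was at 18.2, 16.0, 17.0, 14.8 and 18.4 CPM in the females and at 22.04, 17.6 and 20.6 CPM in the males, with KO replicate 1 among the females. Its log2 difference was -0.27 (adjusted p = 0.267 in edgeR, Benjamini-Hochberg). *Cyp46a1* had 161 ± 22.3 CPM (SD, n = 5) in females and 186 ± 13.5 CPM (SD, n = 3) in males, a log2 difference of -0.28 (adjusted p = 0.213 in edgeR, Benjamini-Hochberg). *Mvd*, the decarboxylase that makes isopentenyl diphosphate, was the 1 member for which every male was above every female, as in 4.7% of all genes (7.5% had no overlap of the sexes in either direction), with a log2 difference of -0.21 (adjusted p = 0.349 in edgeR, Benjamini-Hochberg).

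The number of members under the threshold, the median and the *Hmgcs1* difference leaned on WT replicate 2. Without it, 0 members had an unadjusted p under 0.05 in edgeR, against 7.2% of all genes in that fit. The median over the 31 members turned from -0.049 to 0.023, and *Hmgcs1* was at -0.13. In the same fit *Hsd17b7* was at -0.19, *Tm7sf2* at -0.25 and *Cyp46a1* at -0.31, so the *Cyp46a1* difference did not shrink there. It did shrink without KO replicate 2 (-0.20) and without a genotype term (-0.21). Without KO replicate 1, *Hmgcs1* was called (-0.38, adjusted p = 0.0808 in edgeR, Benjamini-Hochberg), as were 8.14% of all genes in that fit. The males were also the mice with the higher cortical neuron markers. With that score in the model, also added after the data were seen, the log2 difference was 0.087 for *Hmgcs1*, -0.078 for *Hsd17b7*, -0.42 for *Tm7sf2* and -0.57 for *Cyp46a1*, and every adjusted p was between 0.809 and 0.978 (edgeR, Benjamini-Hochberg), so sex and tissue makeup cannot be told apart for these genes.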

How the data were processed

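Periventricular RNA of 4 WT and 4 KO mice was sequenced after polyA selection, with libraries from the NEBNext Ultra II DNA kit. Per the submitters' processing notes and the study's methods, the authors made reads with bcl2fastq 2.20 and quantified them with Salmon, whose version is not given in the sources used here, against Gencode M29 (GRCm39). The deposited values are estimated counts per gene and, for each mouse, estimated counts, TPM and lengths of each transcript, without normalization between mice. How transcripts were summed to genes and whether counting used strand is not given in the sources used here, so reads of genes that overlap on opposite strands may be shared.

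Here the estimated counts were rounded and tested with edgeR 4.0.16 in R 4.3.3 (TMM, filterByExpr, quasi-likelihood test, genotype alone, or genotype and sex, Benjamini-Hochberg over 17669 genes, threshold 0.1 for the adjusted p). No covariate was used in the main test, and DESeq2 1.42.0 was an alternative. Standard errors are the log2 fold change over the root of F, and intervals are 95% intervals. Values per mouse are TMM-normalized CPM, and scores of markers are mean log2 CPM with a prior count of 2. TPM was summed over transcripts matched to Gencode M21 and given where at least 95% of a gene's counts were matched. Depth was between 47887437 and 74482334 counts a mouse, and the intervals rest on the spread between mice, which includes counting error. The tests were first tried on simulated data. Libraries of the same genotype differed by 35.3 to 228 times the sampling noise (chi-square over its degrees of freedom), so all 8 were kept as separate mice.

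The members, the gene lists and the tests were chosen with earlier results of these data known. Values in every mouse are given for members with an unadjusted p under 0.05 in either contrast or without overlap between genotypes, and, in each role group, for the one with the largest fold change and the one with the highest TPM. *Lrp1* was added after its values were seen. Of other pathway genes, up to 3 in each list were named by the smallest p, and 3 more named by the rule are not reported here. The alternatives were DESeq2, its size factors in edgeR, other filters on low counts, transcript sums with length offsets, a robust fit, a stricter threshold, covariates (sex, replicate number, marker scores), and fits without 1 of the mice. The fit on the females, the astrocyte score, DESeq2 with sex, and the cortical score in the sex comparison were chosen after seeing the data. Promoter windows came from RefSeq on GRCm38.p6, which is not the build of the files, and served only for sequence.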

Additional observations from a re-analysis of the deposited data

Results flagged for a closer look

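Each genotype's 4 mice were looked at for each of the 31 members, 62 groups in all, for a mouse far from the other mice of its genotype. The gap of 1 mouse to its nearest neighbour, as a share of the whole range, was past Dixon's 95% critical value in 2 groups, or 3.23%, where chance gives about 1 in 20. *Sc5d*, the sterol desaturase, was at 66.6 CPM in WT replicate 2 and between 51.3 and 53.9 CPM in the other WT mice. *Npc2*, the sterol-binding protein of the lysosome, was at 68.3 CPM in KO replicate 3 and between 80.3 and 82.5 CPM in the other KO mice. Both mice are males.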

How the results depend on the processing

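Against 1 gene called between KO and WT in edgeR, DESeq2 called 13 genes, no filter on low counts 2, a minimum of 10 counts in every mouse 0, sex as a covariate 2, the oligodendrocyte score 0, the cortical score 2, the astrocyte score 0, females alone 3, DESeq2 with sex 213, and the fits without 1 mouse between 0 and 3. The count of members called was 1 (*Lcat*) in DESeq2 with and without sex and 0 in all other fits, those without 1 mouse included (0 to 0). The median log2 fold change of the members was 0.032 in females alone and between -0.053 and 0.039 without 1 mouse, the highest without WT replicate 2. Members near 0 changed sign: *Msmo1* with sex (-0.0065), with DESeq2 and sex (-0.0078) and with the astrocyte score (-0.073), *Idi1* (-0.0065), *Srebf1* (0.13) and *Apoe* (0.038) with the astrocyte score, *Hmgcs1* (0.081), *Tm7sf2* (0.053) and *Hsd17b7* (0.042) with the cortical score, and *Hmgcs1* (0.059) in females alone. Without 1 mouse the log2 fold change ranged from -0.085 to 0.12 for *Hmgcs1*, -0.0061 to 0.16 for *Idi1*, -0.070 to 0.11 for *Msmo1*, -0.12 to 0.085 for *Tm7sf2*, -0.11 to 0.064 for *Hsd17b7*, -0.23 to 0.094 for *Srebf1*, -0.27 to 0.0015 for *Apoe* and -0.019 to 0.15 for *Insig1*. Between females and males, 657 genes were called in edgeR, 7 without a genotype term, 1528 in DESeq2, 1 with the cortical score and from 10 to 1462 without 1 mouse (the fewest when WT replicate 2 was left out, the most for KO replicate 1), of which members were 0 or 1, and the median of the members was between -0.13 and 0.023. With the cortical score *Hmgcs1* was at 0.087. Without WT replicate 2 the WT group had no male, so the sex term then rests on the KO mice. For all of these the cause was not tested.

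The replicate numbers did not pair the mice, since the deviations of same-numbered mice correlated at between -0.23 and 0.27 and 3 of 8 mice correlated best with their own number. With the replicate number as a block, 0 genes were called, *Hmgcs1* was at 0.0013 and no member was called.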
